A study of Mus musculus with 12 samples.

Results

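The 3 arrays of trigeminal ganglion cultures that received miR-34a were compared with the 3 arrays of cultures that received miR-21, over all 19572 probes paired with 1 gene symbol out of 22206 in the table. These 6 arrays are part of a series of 12, which also holds 3 arrays of a scramble miRNA and 3 of miR-324. By the labels every group holds neurons of the mouse trigeminal ganglion (TG), the sensory ganglion of the face and mouth, in primary culture on laminin, transfected with a miRNA. The strain, age and sex of the mice, the miRNA arm and the dose are not given in the sources used here. The labels of miR-34a 1 and 2 end in a suffix that they share with scramble 1 and 2, called suffix A here. Those of miR-34a 3 and of the 3 miR-21 arrays carry no suffix, so miR-34a 3 is also reported apart. Scramble 3 and 1 miR-324 array carry another suffix. No label says whether arrays of 1 group are of different cultures or mice, and the p-values rest on the spread among these samples alone, which may be technical.

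Values are log2 signals after the robust multi-array average (RMA), and a difference of 1 is a 2-fold difference. The median of 1414 olfactory and vomeronasal receptor probes, genes that these cells should lack, lay between 3.51 and 4.12. Neuronal genes were well above it in all 6 arrays: Snap25, which fuses synaptic vesicles with the membrane, ranged over 12.64 to 15.85 and Tubb3, neuronal tubulin, over 10.15 to 14.87. Genes of other cells were bright as well, with the endothelial cadherin Cdh5 at 12.25 to 15.57 and the myelin gene Mbp at 10.26 to 14.60, so the RNA was not from neurons alone. In such bulk RNA, fewer cells of a type and less RNA per cell cannot be told apart.

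A miRNA loads into an Argonaute protein and guides it to messenger RNAs through its seed, bases 2 to 8 from the 5′ end, which usually lowers the transcripts that pair with it. miR-34a is switched on by p53 and is known for restraining the cell cycle and Notch and Axl signalling, and miR-21 is known as a growth-promoting miRNA of tumours and of fibrosis. The mature sequences of the 5p arms, the usual active strands, are shown from RefSeq (GRCm38.p6) because their seeds, in capitals, share the base at 2 of 7 positions and so call for different sites.
mmu-miR-34a-5p: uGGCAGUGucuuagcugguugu
mmu-miR-21a-5p: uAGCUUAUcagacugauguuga
The first lies on the plus strand at chr4:150068473-150068494 and the second on the minus strand at chr11:86584120-86584141, and each has 22 bases. In the same table mmu-miR-34b-5p, mmu-miR-449a-5p and mmu-miR-449c-5p carry the seed of miR-34a, and mmu-miR-21c that of miR-21.

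Between the 2 miRNAs 31 genes differed at an adjusted p under 0.05, 0.158% of those tested, of which 17 were higher in miR-34a (0.0869%) and 14 lower (0.0715%). In all 31 the 3 miR-21 arrays were the extreme ones: they lay below each of the 9 other arrays of the series for the 17 genes that were higher in miR-34a, and above each of them for the 14 that were lower. The miR-34a arrays were the extreme group in 3 of the 31 (Pltp, Rpl36 and the olfactory receptor Olfr829). Over all genes the miR-21 arrays were lowest in 1.84% and highest in 3.37%, and the miR-34a arrays highest in 0.138% and lowest in 0.399%. Of the 1205 genes (6.16%) with the 3 miR-34a arrays all above the 3 miR-21 arrays, miR-21 was the lowest of the series in 29.9% and miR-34a the highest in 2.24%. For the 2131 genes (10.9%) with miR-34a all below miR-21, miR-21 was the highest in 31.0% and miR-34a the lowest in 3.66%. The count of 31 rested on the arrays: it was 2 without miR-34a 1 and 2 without miR-34a 2, 537 without miR-34a 3, and 6, 3 and 6 without miR-21 1, 2 and 3. With the suffix as a fixed block it was 1004, and within the arrays without a suffix, miR-34a 3 against the 3 miR-21 arrays, it was 965 with the lone array assumed to vary like the other groups. With only the 6 arrays compared 23 genes passed, 11 of them among the 31, and 13 of the 24 named rises and falls no longer did, among them Lgals3bp, Slc40a1 and Lgals9 (adjusted p = 0.0566, 0.0718 and 0.0566). An unadjusted p under 0.05 was reached by 2210 genes (11.3%), the share to set beside such counts of list members. In the mean 8209 of the 19572 were higher in miR-34a and 11329 lower. Counts of list members higher or lower in the mean are to be set beside that uneven split.

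Among the genes that rose, 2 passed in each of the 6 fits that left out 1 array. Ifitm3, an interferon-induced protein that blocks virus entry, stood at 14.82, 14.92 and 14.23 in the miR-34a arrays and at 11.15, 11.47 and 11.97 in the miR-21 arrays. No miR-34a array came near a miR-21 array, and the scramble and miR-324 arrays lay at 14.42 to 15.14 and 15.03 to 15.88. Its difference was 3.13 ± 0.32 (SE; adjusted p = 0.00391), 8.73-fold. Pltp, which transfers phospholipids between lipoproteins, stood at 7.37, 7.74 and 7.65 against 5.06, 4.97 and 5.23, a difference of 2.50 ± 0.25 (adjusted p = 0.00391). It is the 1 named gene for which every miR-34a array also lay above all scramble (6.47 to 7.30) and miR-324 arrays (6.63 to 6.94).

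**Figure D1:**
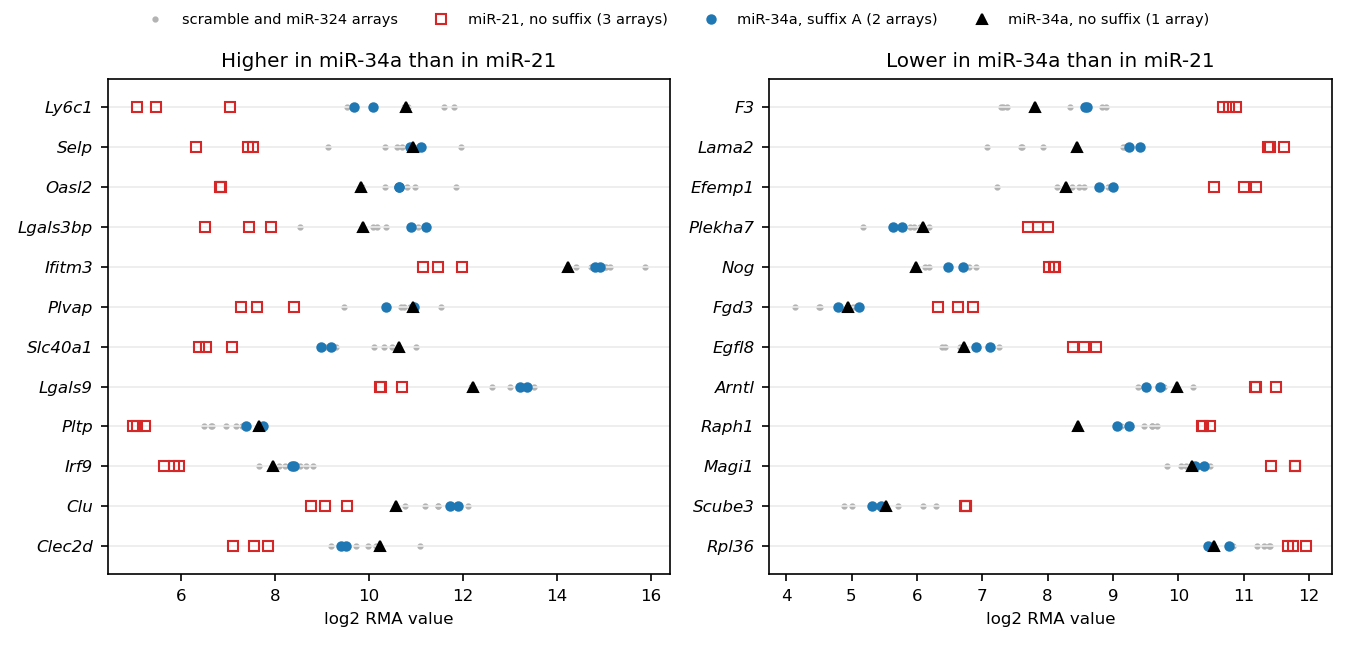
Log2 RMA value (x axis) of the 12 largest rises (left) and 12 largest falls (right) in each array, with blue circles for miR-34a 1 and 2, a black triangle for miR-34a 3, red squares for the 3 miR-21 arrays and grey dots for the scramble and miR-324 arrays. The red squares stand apart from every other symbol in all 24 rows, for example at 5.05 to 7.04 for Ly6c1 against 9.67 to 10.78 in the miR-34a arrays.

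Interferon-induced genes were mostly higher in miR-34a than in miR-21. Type I interferon acts through a cell surface receptor, and a complex that holds IRF9 then binds the interferon-stimulated response element of many antiviral genes. Of 30 measured genes of this response 2 rose and 0 fell past the threshold, 27 were higher in the mean, and 20 had all miR-34a arrays above all miR-21 arrays (6.16% of all genes did). The median difference was 1.75, beside −0.08 over all genes. In 19 of the 30 the miR-21 arrays were the lowest of all 12 (1.84% of all genes). There the scramble and miR-324 arrays were on the side of miR-34a.

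The DNA-binding subunit Irf9 stood at 8.40, 8.35 and 7.96 in miR-34a and at 5.95, 5.62 and 5.83 in miR-21. It rose by 2.44 ± 0.28 (adjusted p = 0.00662), and its scramble arrays lay at 8.07 to 8.80. Oasl2, an antiviral protein related to the oligoadenylate synthetases, stood at 10.64, 10.64 and 9.82 against 6.85, 6.82 and 6.85 and rose by 3.53 ± 0.41 (adjusted p = 0.00662), 11.5-fold. For both genes every miR-34a array was above every miR-21 array, and neither passed without miR-34a 1, without miR-34a 2 or without miR-21 2 (adjusted p up to 0.0624). Stat2, the partner of Irf9, stood at 10.44, 10.33 and 9.05 against 7.99, 8.33 and 7.95 and did not pass (1.85, adjusted p = 0.0710). Ifit1, which binds foreign RNA ends, stood at 7.96, 8.52 and 7.59 against 4.19, 5.52 and 5.04 (3.11, adjusted p = 0.106). Irf7, the factor that amplifies the response, stood at 5.64, 5.75 and 6.66 against 3.07, 3.53 and 3.56 (2.63, adjusted p = 0.325). In these 3 genes as well, the groups did not overlap.

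No miR-21 array carries suffix A, so in the suffix A arrays against miR-21 the miRNA and the suffix cannot be told apart, here and for every list below, and the 3 measured Y-linked genes fell in that comparison too (median −4.23). Taken apart by suffix, the response differed from miR-21 in both sets. The 2 suffix A arrays had a median difference of 1.43 from miR-21, with 13 of 30 genes past the threshold and higher (4.04% of all genes), and miR-34a 3 had 1.92, with 14 of 30 (2.04% of all genes). The members did not all differ to the same degree. Rsad2 (viperin) stood at 5.40 and 5.81 in the suffix A arrays and at 8.16 in miR-34a 3, against 4.55 to 5.14 in miR-21, and differed between the 2 kinds of miR-34a array (adjusted p = 0.00215). Stat2 ran the other way, with 2.29 ± 0.28 in the suffix A arrays and 0.96 ± 0.36 in miR-34a 3. Mx1, Mx2, Oas1a, Oas2, Oasl1, Ifit2 and Zbp1, equally known members of the response, had differences of −0.32 to 0.24 and overlapping groups. The list of 19 macrophage markers had a median difference of 2.76 from miR-21 in the suffix A arrays and of −0.56 in miR-34a 3, and their part in the interferon result was not tested.

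**Figure D2:**
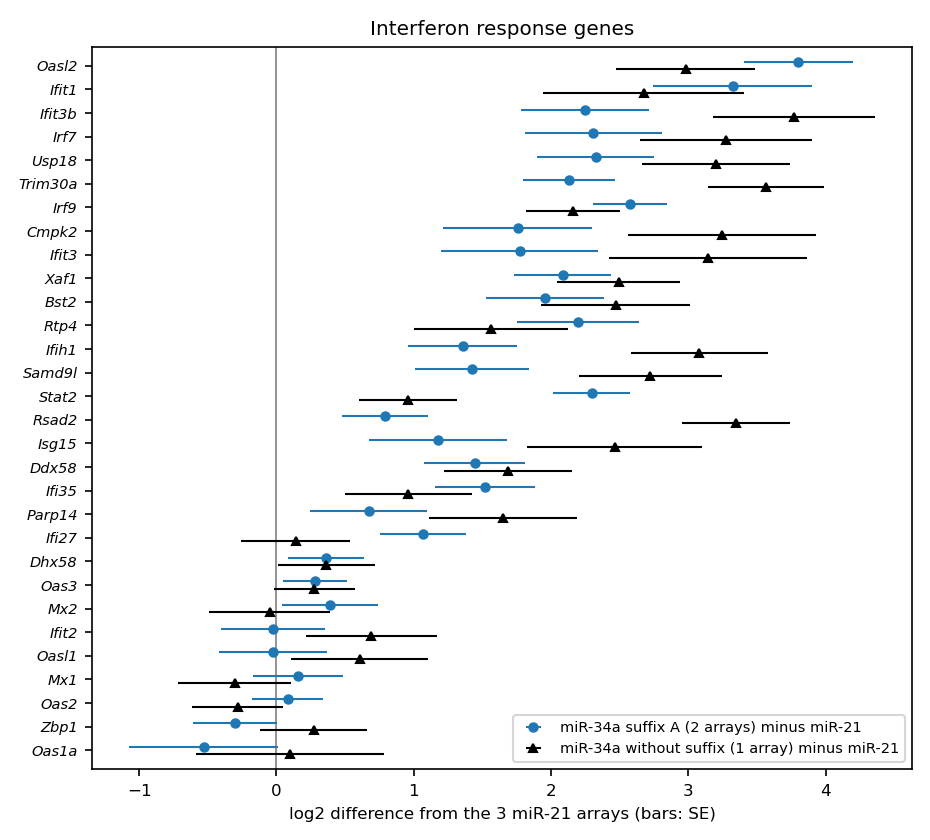
Log2 difference from the 3 miR-21 arrays (x axis, bars are SE of the fit) for the 30 interferon response genes, with blue circles for miR-34a 1 and 2 and black triangles for miR-34a 3. Most symbols lie right of 0 in both sets, with medians of 1.43 and 1.92, and the 7 genes nearest the bottom lie around 0.

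The promoters of the list were examined as well, since the response element has a known form. The list was made of known interferon response genes, so its share of matches follows from that choice. Its core, GAAA, any 2 bases and GAAA again, was searched on both strands of the 250 bases before the annotated start (RefSeq, GRCm38.p6). It was found in 10 of 21 interferon genes with a promoter in the table (47.6%), in 544 of 15691 measured genes (3.47%), in 2 of 9 of the largest rises (Lgals9 and Clec2d), in 1 of 9 of the largest falls (Scube3) and in 0 of 24 collagen and matrix genes. Stretches around the matches are shown for 2 genes that rose and 2 list members whose groups did not overlap, with the match in capitals and each written in the direction of transcription.
Lgals9: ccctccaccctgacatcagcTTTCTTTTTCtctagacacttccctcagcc
Clec2d: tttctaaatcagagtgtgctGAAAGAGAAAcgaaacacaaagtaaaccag
Ifit1: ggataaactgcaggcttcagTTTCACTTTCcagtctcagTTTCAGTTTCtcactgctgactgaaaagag
Stat2: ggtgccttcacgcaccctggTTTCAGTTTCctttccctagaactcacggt
They lie at chr11:78984950-78984999 (minus strand), chr6:129180406-129180455 (plus), chr19:34640765-34640833 (plus) and chr10:128270256-128270305 (plus). Ifit1 holds 2 matches in this stretch and the other 3 genes 1 each. Within the interferon list the match did not separate the genes: the 10 with it had a median difference of 1.99 and the 11 without it 1.93. Outside the list, 534 genes had a match and 2 of them rose, beside 14 of all 15691. The median difference of these 534 genes was −0.07, beside −0.08 over all genes with a promoter. Neither Irf9 nor Oasl2, the 2 that rose, has a match in this window. A match is a description of the letters and no evidence of binding.

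Lgals9 and Clec2d themselves rose. Lgals9, galectin-9, which signals to T cells and microglia, stood at 13.22, 13.37 and 12.22 in miR-34a and at 10.25, 10.23 and 10.70 in miR-21 (2.54 ± 0.35, adjusted p = 0.0184). Clec2d, a ligand of a natural killer cell receptor, stood at 9.50, 9.40 and 10.24 against 7.10, 7.55 and 7.85 (2.21 ± 0.34, adjusted p = 0.0346). Lgals3bp, a secreted galectin-binding glycoprotein, stood at 10.90, 11.21 and 9.87 against 7.44, 6.50 and 7.91 (3.38 ± 0.53, adjusted p = 0.0346). All 3 were separated from miR-21 in every array, and each passed in 1 of the 6 fits that left out an array, the fit without miR-34a 3.

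Genes of antigen presentation did not pass over all 3 arrays. Of 15 measured genes of major histocompatibility complex (MHC) class I and its peptide supply 0 passed in the limma fit, 4 had an unadjusted p under 0.05, and 14 were higher in the mean (median 0.58). B2m, the light chain of class I, stood at 16.19, 15.99 and 17.01 against 15.26, 15.05 and 15.70, groups that did not overlap (1.06, adjusted p = 0.244). H2-K1, a class I heavy chain, stood at 12.37, 11.98 and 13.18 against 11.13, 11.03 and 11.81 (1.19, adjusted p = 0.382). In miR-34a 3 alone 4 of the 15 rose against miR-21 (2.04% of all genes), and in the suffix A arrays 1 did (4.04%). Of 7 MHC class II genes 0 passed and 0 had an unadjusted p under 0.05, with a median of −0.02 and 5 lower in the mean.

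The 2 largest rises, and Plvap beside them, were genes of blood vessels. Ly6c1, found on the surface of endothelial cells and some leukocytes, stood at 10.09, 9.67 and 10.78 in miR-34a and at 5.05, 5.45 and 7.04 in miR-21, a difference of 4.33 ± 0.58 (adjusted p = 0.0171), 20.2-fold. Selp, P-selectin, which tethers leukocytes to activated endothelium, stood at 10.88, 11.10 and 10.94 against 7.42, 6.31 and 7.53 (3.89 ± 0.52, adjusted p = 0.0171). Plvap, the diaphragm protein of endothelial pores, stood at 10.96, 10.37 and 10.94 against 7.61, 7.27 and 8.39 (3.00 ± 0.39, adjusted p = 0.0139). In these genes miR-34a 3 was close to the 2 suffix A arrays. Ly6c1 and Plvap passed in 2 of the 6 fits that left out an array (without miR-34a 3 and without miR-21 3), and Selp, Slc40a1 and Clu in 1 (without miR-34a 3). Slc40a1, ferroportin, the iron exporter, stood at 9.18, 8.97 and 10.64 against 6.37, 7.07 and 6.52 (2.94 ± 0.47, adjusted p = 0.0359), and here miR-34a 3 was above the other 2 (adjusted p = 0.0147). Clu, the extracellular chaperone clusterin, stood at 11.90, 11.73 and 10.58 against 9.07, 8.77 and 9.53 (2.28 ± 0.36, adjusted p = 0.0346).

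The defining endothelial markers did not follow Ly6c1, Selp and Plvap in the suffix A arrays. Cdh5 stood at 12.44 and 12.25 there, at 15.57 in miR-34a 3 and at 12.94, 12.45 and 13.12 in miR-21, and Pecam1 at 10.35, 10.38 and 14.06 against 10.30, 10.20 and 10.97. Of 13 endothelial markers 1 rose in the suffix A arrays against miR-21 (Ly6c1, list median 0.18), close to the 4.04% of all genes. In miR-34a 3, 12 of them rose (median 3.42), beside 2.04% of all genes. The list median of miR-34a 3 was 12.85, beside 12.15 to 13.82 in the miR-324 arrays and 9.59 to 11.92 in the scramble arrays. The high endothelial level was thus not particular to miR-34a 3. Over all 3 miR-34a arrays the list had a median difference of 1.28 with 1 of 13 past the threshold. The difference in Selp was 3.90 ± 0.34 in the suffix A arrays and 3.85 ± 0.43 in miR-34a 3.

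Genes that fell from miR-21 to miR-34a included proteins of the extracellular matrix and of cell junctions. Lama2, the laminin chain of Schwann cell and muscle basement membranes, stood at 9.24, 9.41 and 8.45 in miR-34a and at 11.37, 11.61 and 11.40 in miR-21 (−2.43 ± 0.41, adjusted p = 0.0448). F3, tissue factor, the trigger of coagulation, stood at 8.57, 8.60 and 7.81 against 10.69, 10.77 and 10.88 (−2.45 ± 0.41, adjusted p = 0.0448). Efemp1, the matrix protein fibulin-3, stood at 8.78, 9.00 and 8.28 against 11.01, 11.19 and 10.55 (−2.23 ± 0.32, adjusted p = 0.0241). The groups did not overlap in any of them. Plekha7, which anchors microtubules to adherens junctions, stood at 5.77, 5.64 and 6.09 against 7.70, 8.00 and 7.85 (−2.02 ± 0.24, adjusted p = 0.00836). Nog, the secreted BMP antagonist noggin, stood at 6.47, 6.71 and 5.98 against 8.10, 8.02 and 8.11 (−1.69 ± 0.27, adjusted p = 0.0346).

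The other 7 named falls ranged from −1.65 to −1.21. Fgd3, Raph1 and Magi1 encode an exchange factor for Cdc42, the actin regulator lamellipodin and a junctional scaffold. Egfl8 and Scube3 encode secreted proteins with EGF-like repeats, Arntl the circadian activator BMAL1, and Rpl36 a ribosomal protein. Arntl stood at 9.50, 9.72 and 9.98 against 11.17, 11.49 and 11.19 (−1.55 ± 0.25, adjusted p = 0.0360), and Rpl36 at 10.77, 10.46 and 10.54 against 11.68, 11.96 and 11.75 (−1.21 ± 0.20, adjusted p = 0.0448). All of the 12 named falls except Plekha7 passed in 1 of the 6 fits that left out an array, the fit without miR-34a 3, and Plekha7 passed in 2 (also without miR-21 1).

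Of 37 measured collagen and matrix genes 1 fell and 0 rose, 34 were lower in the mean, and 19 had all miR-34a arrays below all miR-21 arrays (10.9% of all genes did). The median difference was −0.85. The fibrillar collagen Col1a2 stood at 12.27, 11.81 and 11.12 against 15.45, 15.10 and 15.38 (−3.58, adjusted p = 0.125), and Lox, which crosslinks collagen, at 9.92, 10.08 and 10.70 against 14.28, 13.42 and 14.32 (−3.77, adjusted p = 0.125). Neither passed in the fit of all arrays, although every miR-34a array was below every miR-21 array. Both fell past the threshold in the suffix A arrays (Col1a2 −3.27 ± 0.34, Lox −4.01 ± 0.54) and in miR-34a 3 (Col1a2 −4.19 ± 0.43, Lox −3.31 ± 0.68). Counted over the list, 16 of 37 fell in the suffix A arrays (3.31% of all genes) and 11 of 37 in miR-34a 3 (2.89%). Not all matrix genes went this way: Dcn, decorin, stood at 15.79, 15.62 and 13.41 against 13.69, 12.77 and 13.40, and Col3a1 at 10.66, 10.52 and 6.95 against 9.89, 8.27 and 9.92. The fibroblast list, which shares some of these genes, had a median of −0.33, and its part in the result was not tested.

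Among genes past the threshold in the same direction in both sets, Mmp3, Pmp2, Ltbp2, Postn and Cdh6 had some of the largest differences. Both sets were compared with the same 3 miR-21 arrays, so passing in both is not independent support. Mmp3, stromelysin, a matrix protease, stood at 8.35, 8.56 and 8.20 against 4.81, 5.02 and 5.93 (suffix A 3.20 ± 0.34, miR-34a 3 2.95 ± 0.43). Pmp2, a lipid carrier of peripheral myelin, stood at 8.60, 8.31 and 9.16 against 12.86, 12.68 and 13.05 (−4.41 ± 0.42 and −3.70 ± 0.53). Postn, the matricellular protein periostin, stood at 12.37, 12.15 and 8.97 against 14.78, 14.39 and 14.69 (−2.36 ± 0.24 and −5.65 ± 0.30). Postn was thus lower in all miR-34a arrays than in miR-21, and miR-34a 3 was the lowest of them. Its scramble arrays lay at 9.35 to 12.40 and its miR-324 arrays at 9.20 to 9.27, so only the miR-21 arrays stood apart. In Pmp2, Ltbp2 and Cdh6 as well, every scramble and miR-324 array lay below the miR-21 arrays. Ltbp2, which binds microfibrils, gave −2.77 ± 0.37 and −2.72 ± 0.47, and Cdh6, a cadherin, −3.18 ± 0.30 and −2.33 ± 0.38.

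Genes that the literature names as targets of the 2 miRNAs did not pass over all 3 miR-34a arrays, and some did in 1 of the 2 sets. Of 50 measured reported targets of miR-34a 0 passed in the limma fit and 12 had an unadjusted p under 0.05, beside 11.3% of all genes. They had a median difference of −0.39, with 37 lower and 13 higher in the mean (11329 and 8209 of all 19572 genes). In 15 all miR-34a arrays were below all miR-21 arrays (10.9% of all genes), and in 2 all were above (6.16%). In 8 of the 50 the miR-21 arrays were the highest of all 12 (3.37% of all genes). In 0 were the miR-34a arrays the lowest, which is rare over all genes too (0.399%). Against miR-21, 4 of the 50 rose and 6 fell in the suffix A arrays (4.04% and 3.31% of all genes), and 1 rose and 5 fell in miR-34a 3 (2.04% and 2.89%).

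Jag1, a Notch ligand, stood at 13.25, 12.88 and 13.81 in miR-34a and at 15.06, 15.03 and 14.97 in miR-21 (−1.71 ± 0.46, adjusted p = 0.191). Axl, a receptor tyrosine kinase, stood at 14.42, 14.27 and 13.46 against 15.79, 15.43 and 15.74 (−1.60 ± 0.50, adjusted p = 0.265). Axl was lower in both sets taken separately (−1.31, adjusted p = 0.0221, in the suffix A arrays and −2.19 in miR-34a 3). Jag1 fell in the suffix A arrays (−1.96, adjusted p = 0.0106). The 2 groups did not overlap in either gene. The scramble arrays of Jag1, at 11.84 to 13.01, reached below miR-34a, and its miR-324 arrays lay at 12.46 to 14.23. The scramble arrays of Axl lay at 12.50 to 14.51 and its miR-324 arrays at 12.56 to 13.72. In both genes only the miR-21 arrays stood apart, above every other array. Met, the receptor of hepatocyte growth factor, stood at 11.62, 11.75 and 11.91 against 12.17, 12.25 and 12.41 (−0.52, adjusted p = 0.477). Cdk6, a kinase of the entry into the cell cycle, stood at 10.09, 10.43 and 7.08 against 10.41, 9.89 and 10.62. Of these arrays only miR-34a 3 was low (−3.23 from miR-21). Scramble 3, at 8.22, and the miR-324 arrays, at 8.07 to 8.38, were low as well, whereas scramble 1 and 2 stood at 10.20. Sirt1, a deacetylase, stood at 11.10, 10.87 and 11.74 against 10.95, 11.04 and 11.25, with no difference beyond the spread (0.16). Notch1 (6.48, 6.97 and 6.88 against 7.60, 6.25 and 7.83) and E2f3 (8.34, 7.89 and 7.38 against 8.17, 8.71 and 8.52) overlapped too. Csf1r, listed as a target and also as a macrophage marker, stood at 9.20, 8.79 and 4.74 against 6.39, 5.11 and 6.05.

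Of 47 measured reported targets of miR-21 0 passed in the limma fit and 8 had an unadjusted p under 0.05, beside 11.3% of all genes. They had a median difference of 0.02, with 24 higher in miR-34a and 23 lower (8209 and 11329 of all 19572 genes). Against miR-21, 3 of them rose and 7 fell in the suffix A arrays (4.04% and 3.31% of all genes). The list median in miR-34a 3 differed from miR-21 by 0.14. Pdcd4, a translation inhibitor and the textbook target, stood at 11.45, 11.28 and 10.86 in miR-34a and at 10.96, 11.45 and 11.29 in miR-21. Reck, an inhibitor of matrix proteases, stood at 6.50, 6.55 and 6.46 against 6.16, 6.46 and 6.60. Both were level within their spread. Spry1 (5.18, 4.94 and 5.54 against 4.98, 4.97 and 4.68), Spry2 (9.95, 10.14 and 10.03 against 10.54, 10.97 and 10.63) and Btg2 (6.98, 7.30 and 8.65 against 7.29, 7.44 and 7.30), brakes on growth factor signalling and proliferation, had differences of 0.34, −0.67 and 0.30. Btg2 rose in miR-34a 3 alone (1.31, adjusted p = 0.0252). Tpm1, a tropomyosin, stood at 14.54, 14.29 and 15.47 against 15.84, 15.69 and 15.96 and so was higher in miR-21 in each array (−1.06, adjusted p = 0.364, and −1.42, adjusted p = 0.0167, in the suffix A arrays). Tgfbi, a matrix protein induced by TGF-beta, stood at 13.99, 13.66 and 11.54 against 11.14, 10.78 and 10.77, higher in every miR-34a array and not past the threshold (2.17 ± 0.86, adjusted p = 0.379). In the suffix A arrays alone it rose by 2.93 (adjusted p = 0.0323).

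**Figure D3:**
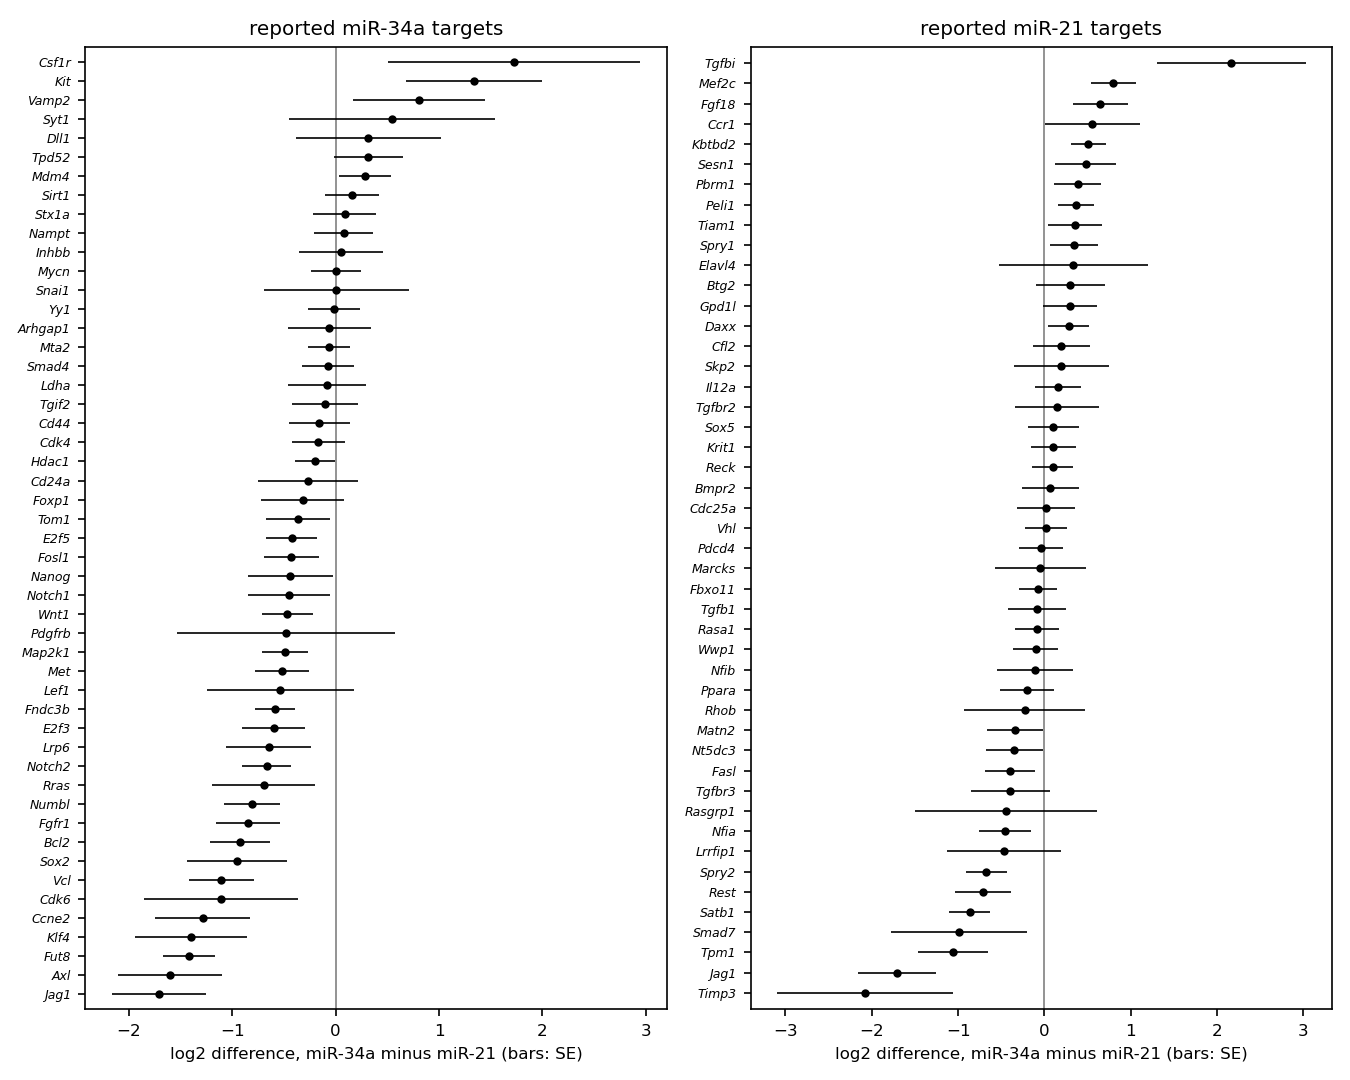
Log2 difference miR-34a minus miR-21 (x axis, bars are SE of the fit) for 50 reported miR-34a targets (left) and 47 reported miR-21 targets (right), sorted by the difference. The left set has its median at −0.39 and the right set at 0.02, and 0 genes of either set passed the threshold over all 3 miR-34a arrays.

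The 3 miR-34a arrays were not alike. Over the 19572 genes miR-34a 1 and 2 correlated at 0.994 and differed by over 2-fold in 1.28% of genes, while miR-34a 3 correlated with them at 0.951 to 0.952 and differed by over 2-fold in 19.4% to 19.5%. The 3 miR-21 arrays correlated at 0.984 to 0.991, with 3.04% to 8.50% of genes over 2-fold apart. The suffix A arrays of miR-34a were slightly further from the scramble arrays of the same suffix (0.993 to 0.994, 1.51% to 1.80%) than from each other. Genes are not independent replicates, and these values describe the arrays.

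Between the 2 suffix A arrays and miR-34a 3, 2118 genes differed (10.8%), 1248 higher in the suffix A arrays (6.38%) and 870 lower (4.45%). The split was 1132 to 1263 once array medians were set equal. Against miR-21 the suffix A arrays had 1439 genes past the threshold (7.35%) and miR-34a 3 had 965 (4.93%), 399 higher and 566 lower, or 529 higher and 483 lower with equal array medians. Leaving out miR-34a 1 or 2 took the first of these counts to 305 or 302.

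Lyz2 and Cd53, genes of macrophages and other leukocytes, gave the 2 largest differences between the miR-34a arrays. Lyz2, lysozyme, stood at 14.03 and 13.60 in the suffix A arrays, at 5.58 in miR-34a 3 and at 10.69, 9.83 and 10.85 in miR-21. C1qb, a chain of complement C1q, stood at 10.22 and 10.12, at 3.10, and at 5.69, 5.76 and 5.40. Cd53, a tetraspanin of leukocytes, stood at 10.88 and 10.77, at 3.23, and at 6.35, 5.71 and 6.17. The miR-21 arrays lay between the 2 kinds of miR-34a array in all 3 genes. Over the list of 19 macrophage markers 15 were higher than in miR-21 in the suffix A arrays (4.04% of all genes) and 4 were lower in miR-34a 3 (2.89%). Over the 3 miR-34a arrays together 0 passed, 0 had an unadjusted p under 0.05 and the median was 1.33, or −0.55 with the suffix as a fixed block. In miR-34a 3 markers such as C1qb, C1qc (3.91), Trem2 (3.99) and Tyrobp (3.84) were at the level of the olfactory probes. The list median was 4.72 in miR-34a 3, 4.66 to 4.80 in the miR-324 arrays and 4.94 to 8.64 in the scramble arrays.

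Neuronal genes followed the same order. Trpa1, the irritant receptor of pain neurons, stood at 10.60 and 10.68 in the suffix A arrays, at 5.07 in miR-34a 3 and at 6.89, 7.21 and 7.18 in miR-21. Scn10a, a sodium channel of nociceptors, stood at 11.63 and 11.41, at 6.63, and at 10.39, 9.57 and 10.75. Pou4f1, the sensory neuron transcription factor BRN3A, stood at 14.09 and 13.80, at 9.92, and at 12.38, 12.07 and 12.63. Of 25 sensory neuron genes 9 were higher than in miR-21 in the suffix A arrays (median 1.34) and 12 were lower in miR-34a 3 (−1.97). Of 25 pan-neuronal genes 13 were higher in the suffix A arrays (1.62) and 6 lower in miR-34a 3 (−1.78). Of all genes 4.04% were higher in the suffix A arrays and 2.89% lower in miR-34a 3. The sensory list median was 6.5 in miR-34a 3, within the miR-324 arrays (6.4 to 8.18) and below the scramble arrays (7.94 to 10.59). The pan-neuronal list median was 9.78 in miR-34a 3, beside 9.94 to 12.16 in miR-324 and 12.65 to 13.54 in scramble. Over all 3 arrays 0 of either list passed in the limma fit, with 2 sensory and 0 pan-neuronal genes at an unadjusted p under 0.05. The medians of 0.24 and 0.54 were −1.74 and −1.43 with the suffix as a fixed block.

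Myelin genes went the opposite way. Mbp stood at 10.38 and 10.26 in the suffix A arrays, at 14.01 in miR-34a 3 and at 14.22, 14.40 and 14.60 in miR-21, and Gjb1, the gap junction protein of myelinating Schwann cells, at 5.76 and 5.19, at 10.90, and at 9.79, 9.52 and 9.29. Of 13 myelinating Schwann cell genes 10 fell in the suffix A arrays against miR-21 (median −1.49, 3.31% of all genes) and 1, Pmp2, fell in miR-34a 3 (−0.40, 2.89%). Over all arrays 0 passed in the limma fit, 6 had an unadjusted p under 0.05, and all 13 were lower in the mean (−0.94). In myelin genes miR-34a 3 therefore resembled miR-21, with list medians of 9.16 and of 9.29 to 9.79. In the miR-324 arrays the list median was 6.35 to 7.57, although miR-324 1 and 4 carry no suffix either. In endothelial genes miR-34a 3 differed from miR-21 more than the suffix A arrays did.

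**Figure D4:**
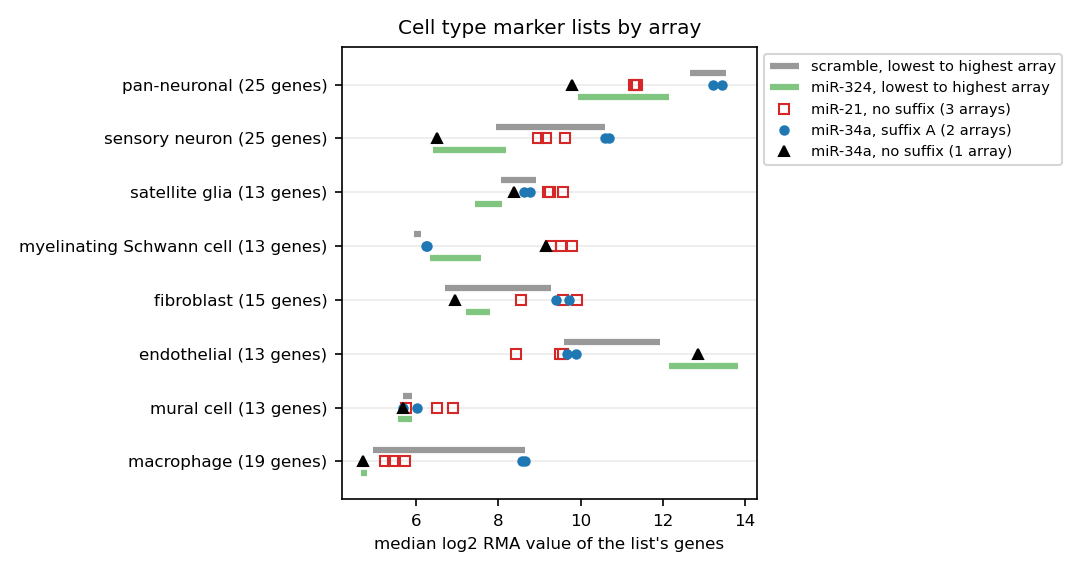
Median log2 RMA value (x axis) of 8 cell type marker lists in each array, with blue circles for miR-34a 1 and 2, a black triangle for miR-34a 3, red squares for miR-21, and grey and green bars for the range of the 3 scramble and the 3 miR-324 arrays. The triangle is the lowest of the 6 arrays for neuronal and macrophage lists (4.72 for macrophage markers against 8.65 and 8.57 in miR-34a 1 and 2) and the highest for endothelial markers (12.85).

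Genes of the Y chromosome also split the arrays. Eif2s3y stood at 2.27 and 2.79 in the suffix A arrays, at 8.53 in miR-34a 3 and at 7.26, 7.09 and 7.85 in miR-21, and Uty at 4.50 and 4.24, at 10.35, and at 9.16, 7.78 and 8.87. Eif2s3y was also low in the scramble arrays (2.13 to 2.93), scramble 3 of another suffix included, and stood at 7.88, 2.96 and 5.13 in miR-324. Low values of this gene were thus not confined to suffix A. The suffix A arrays were at or near the level of the olfactory probes, and the suffix, these genes and the cell type lists changed together between the miR-34a arrays. Their parts in the differences between those arrays cannot be told apart.

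Genes of cell division were lower in miR-34a 3 than in the suffix A arrays and in miR-21. The list median was 5.96 in miR-34a 3, beside 5.95 to 6.68 in the miR-324 arrays and 6.11 to 8.54 in the scramble arrays. The low level was thus not particular to miR-34a 3. Mki67, the proliferation marker, stood at 11.04 and 10.62 in the suffix A arrays, at 6.47 in miR-34a 3 and at 12.53, 12.28 and 12.63 in miR-21. The mitotic ubiquitin-conjugating enzyme Ube2c stood at 10.23 and 10.18, at 3.44, and at 10.89, 10.12 and 10.43, and the replication-linked histone H2ac15 at 13.67 and 13.56, at 6.38, and at 12.90, 13.16 and 13.41. Of 29 cell cycle genes 23 fell in miR-34a 3 against miR-21 (median −2.75, 2.89% of all genes) and 1, Mki67, fell in the suffix A arrays (−0.28). Over all arrays 0 passed in the limma fit, 7 had an unadjusted p under 0.05 and the median was −0.98. The suffix A arrays were thus level with miR-21 for most of these genes, and macrophage, neuronal and fibroblast lists were low in the same array as the cell cycle genes.

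Sterol synthesis showed the reverse picture. Of 19 genes of cholesterol synthesis 15 rose in the suffix A arrays against miR-21 (median 1.74, 4.04% of all genes) and 0 in miR-34a 3, where 0 fell and the median was 0.09. Hmgcs1, which makes the precursor of mevalonate, stood at 15.80 and 15.58 in the suffix A arrays, at 14.01 in miR-34a 3 and at 12.69, 12.92 and 13.27 in miR-21. Insig1, the sterol sensor that holds back SREBP, stood at 11.75 and 11.91, at 11.18, and at 10.18, 9.85 and 9.97 (over all 3 arrays 1.61, adjusted p = 0.0508). In both genes all miR-34a arrays were above miR-21, as in 9 of the 19 (6.16% of all genes). Over all arrays 0 passed in the limma fit, 12 had an unadjusted p under 0.05, all 19 were higher in the mean and the median was 1.10. The scramble arrays, 2 of which share suffix A, had list medians of 11.44 to 11.98, beside 11.75 and 11.82 in miR-34a 1 and 2.

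**Figure D5:**
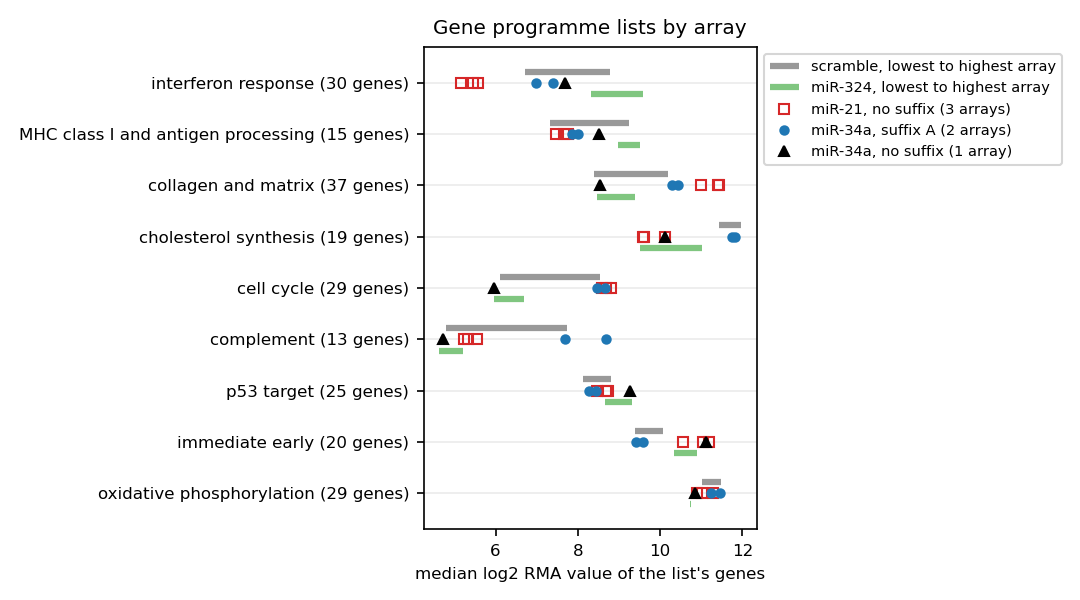
Median log2 RMA value (x axis) of 9 gene programme lists in each array, with the symbols of the cell type plot. For the interferon response the 3 red squares (5.16 to 5.57) lie below every other array, and for cholesterol synthesis the triangle (10.11) lies with miR-21 (9.58 to 10.12) and not with miR-34a 1 and 2.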

How the data were processed

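The authors deposited log2 values made with RMA in Transcriptome Analysis Console 4.0, per the submitters' processing notes, from biotin-labelled Clariom S Mouse arrays. The genome build behind them is not given in the sources used here. RMA equalises array distributions, so a change of total signal is lost. Array medians over named probes were 6.03 to 6.24. A platform table paired 19572 probes with 1 symbol, and 2634 are unnamed here.

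Group means of all 12 arrays were fitted with limma 3.58.1 in R 4.3.3 (lmFit, eBayes, 8 residual degrees of freedom). A second fit used 7 groups split by label suffix (5 degrees of freedom), with the lone miR-34a 3 assumed to vary like the others. Tests were two-sided, and genes passed at a Benjamini-Hochberg adjusted p under 0.05. The fit was run on simulated data with 200 changed genes. Their noise was independent between arrays and held no split by suffix, so that run cannot show how the fit deals with such a split. Members and lists were chosen with earlier results of these data known. For lists, the brightest probe of a symbol was used, and target lists come from general knowledge of the literature. Named genes were the 12 largest separated rises and falls past the threshold, up to 4 passing members of each list, the 6 largest of each direction in the split comparisons, and 15 measured reported targets; 1 further target was not measured. Other list members were named as examples after their values were seen. The numbers in the labels do not pair the arrays.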

Additional observations from a re-analysis of the deposited data

Results flagged for a closer look

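The 2 suffix A arrays of miR-34a and miR-34a 3 gave different differences from the same 3 miR-21 arrays for 2118 of 19572 genes, by the test of the difference itself. Macrophage and myeloid genes were higher in the suffix A arrays: Lyz2 by 8.24 (log2), Cd53 by 7.60, C1qb by 7.07, the neutrophil granule gene Ngp by 6.89 and the macrophage growth factor receptor Csf1r by 4.26. Also higher there were Il11, a cytokine of the IL-6 family, by 7.27, the replication-linked histone H2ac15 by 7.24, Postn by 3.29 and Cdk6 by 3.18. Lower in the suffix A arrays were the Y-linked genes Eif2s3y (−6.00) and Uty (−5.98), the deiminase Padi2 (−5.66), the ankyrin repeat gene Ankrd1 (−5.44), Gjb1 (−5.42), the vascular peptide apelin, Apln (−5.23), Slc40a1 (−1.57) and Btg2 (−1.51). Each of these rests on 1 array without a suffix, and the label suffix, Y-linked genes and cell type markers differ between the same arrays.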

How the results depend on the processing

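Between the miRNAs 31 genes passed, and 27 to 40 did with quantile normalization again, centred arrays, a variance trend or the suffix as a random block (25 to 29 of them among the 31). With only the 6 arrays compared it was 23, 11 of them among the 31, and 13 named genes were lost (adjusted p up to 0.107). The count was 47 among probes brighter than the median, 2148 with array weights, 1004 with the suffix as a fixed block (all 31 among them) and 727 at an unadjusted p under 0.05 with a 2-fold difference. It was 5 with the label number as a replicate block, all 5 among the 31; same-numbered arrays did not deviate together (correlations of −0.12 to −0.03). Leaving out 1 array gave 2 to 537 genes. The suffix A arrays against miR-21 gave 302 to 1439 genes without 1 array, and miR-34a 3 against miR-21 gave 668 to 867. The 2 kinds of miR-34a array gave 1056 to 2322, and at an unadjusted p with a 2-fold difference the last 2 counts were 2157 and 3428. Small differences changed sign: Pdcd4 was 0.17 with array weights and −0.17 to 0.13 without 1 array (positive without miR-34a 3 or miR-21 2), Reck −0.027 to 0.19 without 1 array (negative without miR-21 1), Btg2 −0.091 with array weights and −0.20 to 0.63 without 1 array, Sirt1 −0.049 with array weights and −0.095 to 0.34 without 1 array (both negative without miR-34a 3), and Csf1r −0.96 with the suffix as a fixed block. The causes were not tested. Centring moved the median of all genes from −0.02 to 0.09 for miR-34a 3 against miR-21 and from −0.14 to −0.27 between the miR-34a arrays. Values near the floor of the arrays understate differences.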

Other observations

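Targets of p53, the factor that induces miR-34a, were tallied as well. Of 25 measured, 0 passed between the miRNAs in the limma fit, 4 had an unadjusted p under 0.05, and the median difference was −0.01. Gadd45a, a stress-induced growth arrest gene, stood at 10.77, 10.51 and 11.02 in miR-34a and at 9.01, 9.49 and 9.61 in miR-21 (1.40 ± 0.30, adjusted p = 0.100), and the groups did not overlap. Cdkn1a, the cell cycle inhibitor p21, stood at 16.95, 16.72 and 17.88 against 17.35, 17.29 and 17.42 and did not differ beyond the spread. In miR-34a 3 alone 4 of the 25 rose against miR-21 (2.04% of all genes), among them Eda2r, a receptor of the TNF family (11.26 against 8.34 to 9.16), and in the suffix A arrays 1 rose, Gadd45a, and 6 fell (4.04% and 3.31% of all genes), among them Mdm2, the ligase that degrades p53 (13.08 and 13.16 against 14.08 to 14.54).

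Some secreted inflammatory proteins differed widely in the mean and did not pass. Lcn2, lipocalin-2, an acute phase protein, stood at 13.36 and 12.85 in the suffix A arrays, at 6.47 in miR-34a 3 and at 4.36, 5.25 and 4.85 in miR-21, and Il6 at 10.12 and 10.14, at 5.92, and at 4.93, 5.18 and 4.79. All miR-34a arrays were above all miR-21 arrays in both genes (Lcn2 6.07 ± 1.65, adjusted p = 0.198; Il6 3.76 ± 1.43, adjusted p = 0.364). Of 24 inflammatory and NF-kB genes 0 passed in the limma fit over all arrays and 6 had an unadjusted p under 0.05. Of 20 immediate early genes, which mark recent stimulation, 6 fell and 2 rose in the suffix A arrays against miR-21 (3.31% and 4.04% of all genes). Fos stood at 8.63 and 9.07 there, at 11.84 in miR-34a 3 and at 11.30, 10.44 and 11.37 in miR-21. Of 29 oxidative phosphorylation genes 0 passed in the 3 comparisons with miR-21 (5 at an unadjusted p under 0.05 over all arrays), with medians of 0.09, 0.14 and 0.03.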
